A study of Mus musculus with 12 samples.

Results

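The RNA of Mtr4-null mouse oocytes was compared between hand-separated nuclei and cytoplasms. The members are the 6 libraries labelled Mtr4-null nucleus or Mtr4-null cytoplasm, of 12 in the series, and the 6 WT (wild-type) libraries serve as the reference pair. Oocytes were taken at day 14, a time of growth before meiotic maturation, and each library holds total RNA of 10 nuclei or 10 cytoplasms separated by micromanipulation and depleted of ribosomal RNA. There are 3 libraries in each of the 4 groups: WT nucleus, WT cytoplasm, Mtr4-null nucleus and Mtr4-null cytoplasm. Both compartments of the comparison are labelled Mtr4-null, so it describes where RNA lies under that label, with 1 nucleus library whose Skiv2l2 level goes against it, and the WT pair shows the same split with the gene present. The sources used here do not give the promoter or Cre that removed Mtr4, the strain or the number of animals, and the series' design speaks of duplicates. Nothing says that replicates came from separate animals, so each p-value reflects spread among these pools, which may be technical.

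MTR4, encoded by Skiv2l2, is a helicase of the nucleus that feeds RNA to the RNA exosome, which trims or destroys RNA from its 3′ end. Its known substrates include precursors of ribosomal RNA and of small nucleolar RNAs, promoter upstream transcripts and other unprocessed polyadenylated RNA. A growing oocyte holds a large nucleus, the germinal vesicle, within a far larger cytoplasm that stores maternal mRNA for use after fertilisation, so most messages of this cell are cytoplasmic by mass.

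Values are FPKM, fragment counts divided by transcript length and by the library's total, so they give an RNA as a share of its library. Fewer nuclei in a pool and less RNA in each nucleus therefore cannot be told apart. In what follows, nuclei 1, 2 and 3 and cytoplasms 1, 2 and 3 are the libraries of that replicate number labelled Mtr4-null, and values are given in that order. Skiv2l2 itself was at 7.98, 0.182 and 1.12 FPKM in the nuclei and at 1.04, 0.315 and 0.700 in the cytoplasms. In WT it was at 6.06, 2.45 and 5.37 in the nuclei and at 21.1, 19.4 and 20.2 in the cytoplasms. The library labelled Mtr4-null nucleus 1 thus held as much Skiv2l2 as the WT nuclei, which goes against its label, while the 5 other Mtr4-null libraries lay below every WT library. The difference between Mtr4-null nuclei and cytoplasms on the log2(FPKM + 1) scale was 0.77 ± 0.60 (SE, n = 3 and 3, limma adjusted p = 0.30), and without nucleus 1 it was -0.068.

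The nuclei stood apart from each other in a second way. Scarna2, a guide RNA of the Cajal body (a nuclear body where spliceosomal RNAs are modified), took 81.7%, 70.2% and 58.0% of the summed FPKM in nuclei 1, 2 and 3 and 1.08%, 5.13% and 0.811% in the cytoplasms. In nucleus 3, Spearman correlations of FPKM across the 11671 genes tested were 0.92, 0.91 and 0.92 with the 3 cytoplasms, against 0.84 and 0.81 with nuclei 1 and 2. Its value lay between the lowest and highest cytoplasm for 36.3% of genes, against 10.1% for nucleus 1 and 7.38% for nucleus 2. All 14 oocyte marker genes were at 1 FPKM or more in all 6 libraries, and their summed FPKM was 7392, 4207 and 15651 in the nuclei and 14338 to 20550.0 in the cytoplasms. Granulosa cell markers summed to 38.8, 34.5 and 122 in the nuclei and 94.8 to 140.3 in the cytoplasms, with 4 of 16 at 1 FPKM or more in all 3 nuclei and 5 listed at 0 in all 3, Foxl2, Inha and Fst among these, and theca and stroma markers summed to at most 9.33 in any of the 6. Of the 5 granulosa markers tested none was called. Wnt4, named after its values were seen, was at 1.51, 1.09 and 1.82 in the nuclei against 0.161, 0.309 and 0.150. It passed the filter only through the nuclei, which fixed this order. For the 16 granulosa, 12 theca and stroma and 13 blood and endothelium markers in the table, their part in the differences described here was not tested. By the most common ratio of low values between libraries, taken as a guide to what 1 fragment is worth, nuclei 1, 2 and 3 had 0.264 to 0.398, 0.114 to 0.124 and 0.336 to 0.347 of the depth of cytoplasm 1, against 0.437 to 0.606 for cytoplasms 2 and 3, so nuclei carry more counting error.

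The test, limma on log2(FPKM + 1), covered the genes that reached 1 FPKM in 3 or more of the 6 libraries. Of 11671 such genes, 200 were called (1.71%): 174 were called higher in the Mtr4-null nucleus (1.49% of those tested) and 26 lower (0.223%), at a Benjamini-Hochberg adjusted p below 0.05. At an unadjusted p below 0.05 there were 4228. The median difference over all genes tested was -0.89, so a typical gene had a lower FPKM in the nuclei. With median-of-ratios scaling that median was -0.11. Small RNA genes, Scarna2 among them, took 91.4%, 91.1% and 72.0% of the summed FPKM in nuclei 1, 2 and 3. FPKM are divided by length, so these are not shares of fragments, and their part in the median was not tested. Every nucleus was above every cytoplasm for 542 genes (4.64%) and below for 4619 (39.6%). The count of lower genes turned on nucleus 3 and on scaling. Without nucleus 3, 7059 genes were called lower (60.5%) and 428 higher (3.67%). With median-of-ratios scaling as well, an alternative chosen after seeing the data, 169 were called lower and 492 higher. The limma fit of all 12 libraries, which shares the smaller spread of the WT libraries, called 4281 lower and 438 higher. The median SD within a group was 0.77 for the Mtr4-null nuclei, 0.24 for the Mtr4-null cytoplasms, 0.41 for the WT nuclei and 0.14 for the WT cytoplasms.

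Small nucleolar RNAs (snoRNAs) and their Cajal body relatives (scaRNAs) had the highest median difference of the gene lists examined, at 8.15 over the members tested. They are short guides that direct chemical modification of ribosomal and spliceosomal RNA, and each belongs to the box C/D class, which guides 2′-O-methylation, or the box H/ACA class, which guides pseudouridylation, or in some scaRNAs to both. The table lists 114 of these genes, of which 35 were tested. Of these, 30 were called higher in the nucleus by limma and none lower, beside 1.49% and 0.223% of all genes tested. At an unadjusted p below 0.05, 0 were lower as well. The 5 not called were Snora17, Snora44, Snora65, Snord4a and Snord85. Of the 35, 15 passed the filter only because of their nuclear values, being under 1 FPKM in every cytoplasm, and these had to differ. In the 21 that were above 0 in some cytoplasm, the median difference was 6.69, beside -0.89 over all genes. These 21 still include Scarna13, which is among the 15 that had to differ. The box letters of members with large differences are shown here because they tie the entries to their classes. Capitals mark box C (TGATGA, searched in the first 30 bases) and box D (CTGA, last 15 bases) in the Snord entries and the ACA that lies 3 bases before the 3′ end in the Snora entries, in GENCODE M21 transcripts of GRCm38 on the strand of the gene.
Snord15a: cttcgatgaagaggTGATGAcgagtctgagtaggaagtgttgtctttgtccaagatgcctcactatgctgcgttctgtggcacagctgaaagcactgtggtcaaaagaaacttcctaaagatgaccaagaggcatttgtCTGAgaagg
Snord17: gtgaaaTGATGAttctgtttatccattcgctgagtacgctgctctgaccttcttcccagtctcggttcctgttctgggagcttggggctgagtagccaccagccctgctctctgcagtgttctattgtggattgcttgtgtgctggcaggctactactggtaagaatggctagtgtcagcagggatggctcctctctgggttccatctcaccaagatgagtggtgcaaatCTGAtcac
Snora70: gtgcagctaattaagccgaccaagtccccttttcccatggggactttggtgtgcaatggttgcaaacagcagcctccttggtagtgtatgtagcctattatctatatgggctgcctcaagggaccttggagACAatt
Snora5c: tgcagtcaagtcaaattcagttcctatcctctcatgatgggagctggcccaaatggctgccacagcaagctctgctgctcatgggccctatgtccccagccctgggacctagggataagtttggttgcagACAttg
Snora31: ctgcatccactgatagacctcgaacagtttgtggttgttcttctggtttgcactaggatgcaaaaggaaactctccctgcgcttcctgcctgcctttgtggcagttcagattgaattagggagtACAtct

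By these letters 6 of the 30 called entries held box C with box D and 16 held the terminal ACA, on the transcript's own strand. Across all 141767 GENCODE transcripts the shares were 0.283% and 2.45%, and across the 1558 annotated as snoRNA or scaRNA 20.0% and 19.3%.

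Snord15a, a box C/D RNA that guides modification of 28S ribosomal RNA, was at 1289.5, 5688 and 159 FPKM in the nuclei and listed at 0 in all 3 cytoplasms, so it passed the filter only through the nuclei. Snora70 was at 2679, 1788 and 136, Snora5c at 2079, 1479 and 192, and Snora31 at 1159, 566 and 489, each again listed at 0 in every cytoplasm. These 4 entries were seen in each nucleus and in no cytoplasm and had to differ once tested, so neither a p nor a fold is given. Snord17 was at 6688, 10699 and 1102 in the nuclei and at 8.19, 10.6 and 0 in the cytoplasms, a difference of 9.82 ± 0.90 (SE, adjusted p = 1.0e-05). Snora47 was the most abundant Snora entry, at 20131, 37914 and 29465 in the nuclei, and unlike those above it was also plain in the cytoplasms, at 1568, 2036 and 1722 (difference 3.999 ± 0.68, adjusted p = 0.0050, not called without cytoplasm 3). In the WT cytoplasms it was at 115, 176 and 83.4, and its WT difference was 7.52. The limma interaction between genotypes gave -3.52 (adjusted p = 0.090), and without nucleus 3 -3.55 (adjusted p = 0.018). Nucleus 3 was the lowest of the nuclei for 24 of the 35 tested members.

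Scarna2 was at 1781280, 1409050 and 655125 FPKM in the nuclei and at 4599.5, 24156 and 3310.1 in the cytoplasms, a difference of 7.36 ± 1.12 (adjusted p = 0.0018). All 3 nuclei lay far above all 3 cytoplasms. Of the 3 scaling alternatives, 1 kept this call. The level rests on the gene length used: the RefSeq model of Scarna2 spans 61 bases and the GENCODE transcript 414, and a value per kilobase from the shorter model is larger for the same fragments. Which model lies behind the deposited value is not given in the sources used here. The GENCODE transcript (chromosome 3, minus strand) is printed from base 115 to its end, 300 bases, with those of the RefSeq model, positions 350 to 410 of the transcript, in capitals.
Scarna2: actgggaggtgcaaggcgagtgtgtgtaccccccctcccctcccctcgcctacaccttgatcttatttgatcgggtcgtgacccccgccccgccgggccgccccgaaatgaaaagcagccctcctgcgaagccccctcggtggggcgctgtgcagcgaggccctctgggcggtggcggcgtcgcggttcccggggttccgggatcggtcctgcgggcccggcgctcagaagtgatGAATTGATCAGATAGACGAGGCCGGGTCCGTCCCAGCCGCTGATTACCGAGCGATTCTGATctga

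Scarna6 was at 9113, 5093 and 1606 in the nuclei against 14.7, 107 and 32.2 in the cytoplasms (difference 6.78 ± 0.74, adjusted p = 7.9e-05). Scarna13 was at 588, 294 and 45.3 against 0.844, 0 and 0, and it too passed the filter only through the nuclei. Scarna17 stood at 4368, 4972 and 4833 in the nuclei, but cytoplasm 1 held 1711 while cytoplasms 2 and 3 were listed at 0, and its call (8.62 ± 1.92, adjusted p = 0.033) was kept under none of the 3 scalings and was lost without nucleus 1 or nucleus 2.

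Other structured nuclear RNAs, the catalytic and spliceosomal ones, followed the same order. Of 9 tested, 7 were called higher in the nucleus and 1 lower, Rn45s, beside 1.49% and 0.223% of all genes tested. Rmrp, the RNA of RNase MRP, which cleaves pre-ribosomal RNA, was at 47722, 29811 and 56244 in the nuclei and at 134, 96.5 and 143 in the cytoplasms (difference 8.45 ± 0.59, adjusted p = 5.5e-07). Rpph1, the RNA of RNase P, which matures tRNA ends, was at 14224, 46538 and 11602 against 175, 517 and 205 (6.21 ± 0.70, adjusted p = 9.9e-05). For both, the nuclei differed by a few fold among themselves and lay over 10 times above any cytoplasm; nucleus 3 was the highest of the nuclei for Rmrp and the lowest for Rpph1. Rnu11 and Rnu12 are spliceosomal RNAs of the minor spliceosome, which removes a rare class of introns. Rnu11 was at 1548, 5288 and 928 in the nuclei and at 0, 164 and 0 in the cytoplasms (8.49 ± 1.41, adjusted p = 0.0043). Rnu12 was at 6020.3, 30548 and 1298 against 20.0, 346 and 89.5 (6.16 ± 1.04, adjusted p = 0.0050), and nucleus 2 was the highest for both. Terc, the template RNA of telomerase, was at 744, 193 and 116 against 2.34, 13.8 and 8.9998 (5.02 ± 0.68, adjusted p = 0.00069). Rprl3, an entry close in sequence to RNase P RNA whose reads may be shared with Rpph1, was at 12060.0, 4758 and 633 against 18.2, 239 and 17.5 (6.23 ± 1.03, adjusted p = 0.0041). Under median-of-ratios scaling, scaling without small RNA genes and quantile normalization, Rmrp, Rpph1 and Terc kept their calls in all 3, Rnu12 and Rprl3 in 2 and Rnu11 in 1. Without nucleus 2, Rnu11, Rnu12 and Rprl3 were not called.

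**Figure D1:**
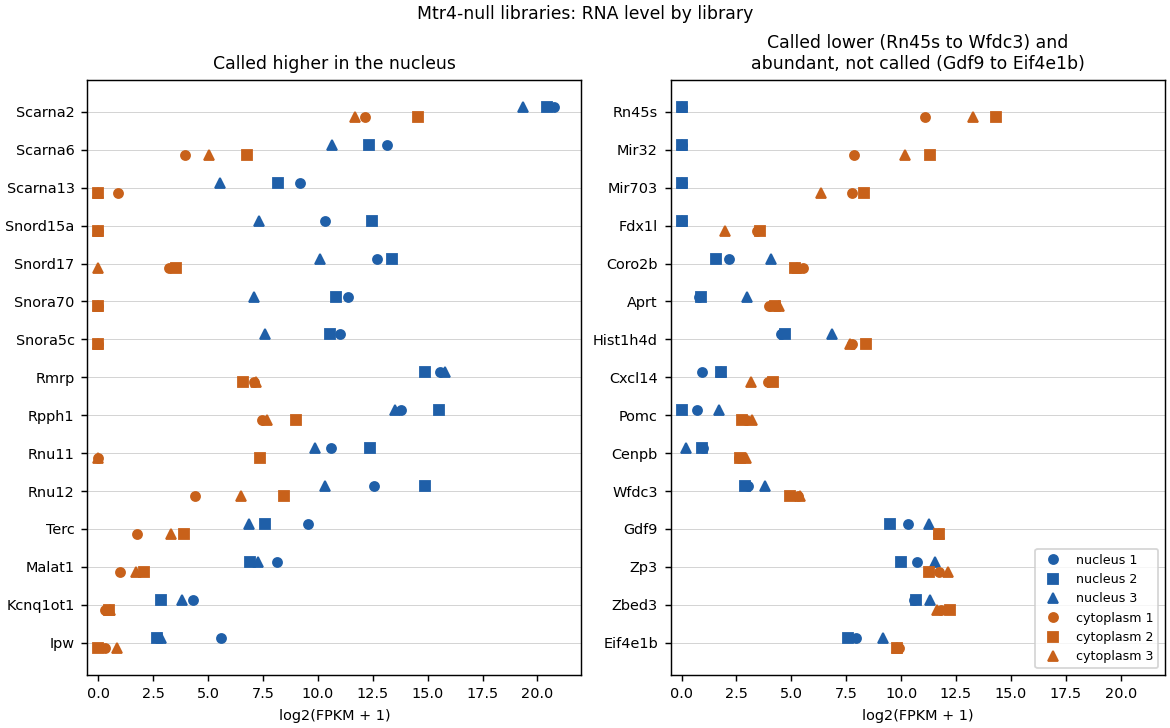
RNA level, as log2(FPKM + 1), in each Mtr4-null library for 15 RNAs called higher in the nucleus (left) and for 11 called lower and 4 abundant messages not called (right); blue marks are nuclei, orange marks cytoplasms, and the shape gives the replicate number. Nuclei and cytoplasms do not overlap for the RNAs on the left, which the filter fixed for those under 1 FPKM in every cytoplasm. Nucleus 3 (blue triangle) lies nearest to the cytoplasms for Gdf9, Zp3, Zbed3 and Eif4e1b.

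Among long noncoding RNAs known to stay in the nucleus, 3 of 8 tested were called higher and none lower in Mtr4-null nuclei, and 6 of the same 8 were called higher in WT. Over all genes tested these shares were 1.49% in Mtr4-null and 8.46% in WT. Of the 8, Kcnq1ot1 and Ipw passed the filter only through the nuclei. These 2 had to be higher there once tested, so no p is given for them. Malat1, a component of nuclear speckles where splicing factors gather, was at 278, 119 and 154 FPKM in the nuclei and at 1.002, 3.24 and 2.29 in the cytoplasms, a difference of 5.84 ± 0.50 (limma adjusted p = 4.7e-06). Kcnq1ot1, an imprinted antisense RNA that silences neighbouring genes on its own chromosome, was at 18.8, 6.35 and 12.98 against 0.247, 0.387 and 0.437. Ipw, an imprinted transcript of the Prader-Willi region, was at 47.7, 5.32 and 6.20 against 0.244, 0 and 0.820, with nucleus 1 well above nuclei 2 and 3. Ipw was called under none of the 3 scalings, nor without cytoplasm 2. The groups did not overlap for Malat1, nor for Kcnq1ot1 and Ipw, where the filter fixed this.

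The 5 other tested members, Rian, Airn, Nespas, Pvt1 and Tug1, were not called. Of these, Pvt1 is singled out after its values were seen: every nucleus was below every cytoplasm, at 2.24, 1.18 and 2.48 against 4.26, 4.39 and 3.41, and the groups overlapped for the other 4. Airn, the imprinted silencing RNA of the Igf2r region, was at 14.6, 3.48 and 4.70 in the nuclei and at 3.39, 6.62 and 5.03 in the cytoplasms, a difference of 0.33 ± 0.54 (adjusted p = 0.62); without nucleus 1 it was -0.22. In WT the same RNA was higher in the nucleus by 3.37, and the test between genotypes gave -3.05 with an adjusted p of 0.11. Tug1 was at 10.8, 8.29 and 39.9 in the nuclei against 33.6, 20.9 and 35.3, so that nucleus 3 alone lay above the cytoplasms (-0.87 ± 0.57, adjusted p = 0.23), with quantile normalization the difference was 0.056, and without nucleus 3 it was -1.52 (adjusted p = 0.0097). Among members below the filter and not tested, Peg13 and Mirg overlapped between nuclei and cytoplasms. Peg13 was at 0.329, 0 and 0 against 0.0143, 0 and 0, and Mirg at 0, 1.03 and 1.33 against 0, 0.128 and 0.298. Neat1, Xist, Meg3 and Snhg11 were not tested either, and for each of them every nucleus was above every cytoplasm, at low values. Their nuclear values were 0.500, 0.569 and 0.184 for Neat1, which scaffolds paraspeckles, 0.0411, 0.234 and 0.0619 for Xist, 0.572, 1.02 and 2.01 for Meg3 and 0.700, 0.398 and 0.387 for Snhg11. The highest cytoplasm values were 0.0365, 0.0184, 0.532 and 0.0914 in the same order. Tsix, Miat, Rmst and H19 were also below the filter, and their levels are not described here.

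Host genes of snoRNAs, whose introns release the guides, had 10 tested members, of which none was called by limma in Mtr4-null. Of the 10, 6 were at an unadjusted p below 0.05 in either direction, beside 4228 of all 11671 genes tested, and the median difference was 0.76. In 5 every nucleus was above every cytoplasm, beside 4.64% of all genes tested. All 10 were called higher in WT (median 2.09), where 8.46% of all genes tested were called higher against 1.49% in Mtr4-null. Gas5 was at 1.48, 2.16 and 2.099 in the nuclei and at 0.385, 0.476 and 0.231 in the cytoplasms. It was not called, and it passed the filter only through the nuclei. Snhg6 went the other way, at 12.2, 0 and 8.10 against 25.5, 29.6 and 16.0 (-2.28 ± 0.76, adjusted p = 0.13), although it was higher in the WT nuclei. No member of this list was called different between genotypes.

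Outside the small RNA classes, 136 further entries were called higher in the nucleus, 85 with a given gene name. The other 51 were among 1182 tested Gm or Rik entries, names given to genes known only from sequence or cDNA clones. Of all genes tested 1.49% were called higher. By RefSeq class, the 174 hold 86 of 10908 tested protein-coding genes, 41 of 507 lncRNAs, 25 of 30 snoRNAs and 6 of 6 guide RNAs. Of the 174, 99 were under 1 FPKM in every cytoplasm and passed the filter only through the nuclei. After Malat1, the largest differences among genes with a given name included Olfr856-ps1 (an olfactory receptor pseudogene) at 199, 67.4 and 135 in the nuclei against 2.25, 4.47 and 3.10, Vmn1r58 (a vomeronasal receptor) at 139, 51.2 and 103 against 1.49, 2.94 and 3.99, and Zfp488 (a zinc finger gene) at 223, 48.9 and 168 against 2.35, 4.78 and 4.24. Their differences were 4.88 ± 0.51, 4.64 ± 0.51 and 4.73 ± 0.57 (limma adjusted p = 4.3e-05, 8.1e-05 and 0.00018). In all 3, nucleus 2 was the lowest nucleus and still over 10 times above the highest cytoplasm.

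Grk4, a kinase of G protein-coupled receptors, was at 134, 44.4 and 89.2 in the nuclei and at 1.93, 2.83 and 2.91 in the cytoplasms (4.54 ± 0.50). Olfr613, another olfactory receptor, was at 94.1, 27.0 and 73.1 against 1.15, 2.27 and 2.95 (4.26 ± 0.54). Ctla2a, a cysteine protease inhibitor, was at 49.5, 11.0 and 25.2 against 0.915, 0.866 and 0.288. It passed the filter only through the nuclei and had to differ. BC018473 kept another order, with nucleus 2 highest, at 78.5, 180.5 and 23.9 against 1.52, 2.29 and 1.07 (4.79 ± 0.63). The entry 4932411L15 had a difference of 4.03 ± 0.45. Olfr856-ps1, Vmn1r58, Zfp488, Grk4, Olfr613, BC018473, 4932411L15 and Malat1 each held the call under each scaling and with each of the 6 libraries left out in turn. Of the 174 genes called higher, 135 were called under all 3 scalings and 68 with each library left out in turn.

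The leading Gm and Rik entries were Gm12238, annotated by RefSeq as a snoRNA, at 325, 247 and 120.0 in the nuclei and listed at 0 in the cytoplasms, and 5730408K05Rik at 44.0, 78.2 and 12.2 against 0.359, 0 and 0. A130077B15Rik followed at 477, 136 and 319 against 5.47, 8.72 and 8.81 (5.02 ± 0.52, adjusted p = 4.3e-05), and A630089N07Rik at 289, 53.8 and 234 against 4.33, 5.88 and 6.59 (4.57 ± 0.59). The last 2 had the order of nuclei seen for Zfp488, with nucleus 1 highest and nucleus 2 lowest.

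Several of these entries share sequence, which was looked for after their values were seen. The GENCODE transcript of A130077B15Rik (2547 bases, chromosome 10, minus strand) matched the transcripts of 497 other GENCODE genes over at least 300 bases at 80% identity or more. Of these, 79 were tested here and 14 were called higher in the nucleus (17.7%, beside 1.49% of all genes tested), while the median over the 79 was -0.73, so that most genes with such a match were not nuclear. Among the 14 were Zfp488 (92.5% identity over 924 bases, opposite strand), Vmn1r58 (89.7% over 1019 bases, same strand), Grk4, Olfr613, Ctla2a, Kcnq1ot1 and Zfp277. At 500 bases and 85% identity the counts were 8 of 26. Fragments from such a stretch could be assigned to any of these genes, so the levels of single entries are uncertain, and how the authors' counting split them is not given in the sources used here. The 200 bases of A130077B15Rik most shared by the 14 (positions 2137 to 2336 of the transcript) are shown, with capitals where at least 90% of the 11 to 12 matches covering a base had the same letter.
A130077B15Rik: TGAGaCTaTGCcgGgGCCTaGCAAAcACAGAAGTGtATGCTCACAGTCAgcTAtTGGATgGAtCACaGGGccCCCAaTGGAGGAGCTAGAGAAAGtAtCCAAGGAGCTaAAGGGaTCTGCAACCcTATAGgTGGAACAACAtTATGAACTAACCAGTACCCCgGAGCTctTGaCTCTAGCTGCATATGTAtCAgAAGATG

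Peg3 and Zfp277 had smaller differences. Peg3, a paternally expressed zinc finger gene, was at 39.7, 10.1 and 15.4 in the nuclei against 2.63, 2.33 and 1.81 (2.59 ± 0.54, limma adjusted p = 0.023). Zfp277 was at 252, 71.2 and 209 against 27.6, 24.6 and 17.9 (2.70 ± 0.53, adjusted p = 0.016). Both calls were lost without nucleus 1, cytoplasm 2 or cytoplasm 3. Of 277 tested Zfp genes 4 were called higher and none lower in Mtr4-null, a share near the 1.49% called higher over all genes tested. The median of these Zfp genes, -0.91, was also close to that of all genes.

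RNAs called lower in the nucleus were few and of 2 kinds. The first was 4 small RNA entries listed at 0 in all 3 nuclei. Rn45s, the 45S precursor of ribosomal RNA, was at 2211, 20429 and 9796 FPKM in the cytoplasms. The libraries had been depleted of ribosomal RNA, and what part that step had in this value was not tested. Rn45s was listed at 0 in the WT nuclei as well. Mir32, Mir1901 and Mir703, precursors of microRNAs, were at 233, 2516 and 1172, at 729, 526 and 1428 and at 219, 315 and 81.6 in the cytoplasms. These 4 passed the filter only through the cytoplasms and had to differ, so no p is given. Of the 26 genes called lower, 14 were under 1 FPKM in every nucleus, Fdx1l and Cenpb among them, and 9 of the 14 were listed at 0 there. The mature forms of Mir32 and Mir703 from RefSeq (GRCm38.p6) are given with the seed, bases 2 to 8 that pair with target messages, in capitals. The 3 forms printed share no seed, and an RNA-seq library of this kind measures the entry and not the mature microRNA.
miR-32-5p: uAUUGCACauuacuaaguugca
miR-32-3p: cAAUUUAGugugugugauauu
miR-703: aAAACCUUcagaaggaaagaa

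The table lists 615 microRNA entries and 19 were tested. Of these 19, 3 were called lower and 1 higher, beside 0.223% and 1.49% of all genes tested. The higher one was Mir1940, at 19362, 18743 and 8219 in the nuclei against 321, 67.4 and 185 (6.49 ± 0.67, limma adjusted p = 4.3e-05).

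The other kind was 22 further entries, 18 of them genes with a given name, at moderate levels. Coro2b, an actin-binding protein, was at 3.49, 1.99 and 15.8 in the nuclei and at 45.1, 35.3 and 37.4 in the cytoplasms (-2.72 ± 0.59, adjusted p = 0.028), and Aprt, which salvages adenine, at 0.748, 0.852 and 6.90 against 15.05, 18.2 and 20.5 (-2.67 ± 0.59, adjusted p = 0.030). Wfdc3 was at 7.24, 6.41 and 13.05 against 38.6, 29.97 and 41.6 (-1.98 ± 0.47, adjusted p = 0.045). In each of these nucleus 3 was the highest nucleus but stayed below every cytoplasm. Fdx1l, a mitochondrial ferredoxin, was at most 0.00233 in the nuclei against 9.98, 10.9 and 2.93. Pomc, the precursor of corticotropin, was at 0.617, 0 and 2.28 against 6.61, 5.75 and 8.25 (-2.16 ± 0.50, adjusted p = 0.039). Cxcl14, a chemokine, was at 0.917, 2.43 and 2.48 against 14.2, 16.999 and 7.84 (-2.24 ± 0.50, adjusted p = 0.031). Cenpb, a protein that binds centromeric DNA, was the one of these that was lowest in nucleus 3, at 0.983, 0.895 and 0.145 against 5.16, 5.38 and 6.55. Fdx1l and Cenpb passed the filter only through the cytoplasms and had to differ, so no p is given for them. The Rik entries C130074G19Rik (-2.94 ± 0.48), 1110008P14Rik (-2.54 ± 0.59) and 1110001J03Rik (-2.43 ± 0.52) were also lower. Relative to the median of all genes these differences are small, and outside the small RNAs only C130074G19Rik of the 22 was called lower under all 3 scalings. Only Fdx1l, which had to be lower, and C130074G19Rik of the 10 genes just named kept the call with each of the 6 libraries left out in turn. Wfdc3 and Pomc kept it in 1 of the 6, without nucleus 3.

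Replication-dependent histone genes, which supply histones when DNA is copied and whose messages end in a stem-loop, had 44 tested members of 68. Of these, 4 were called lower and 1 higher, beside 0.223% and 1.49% of all genes tested. Their median was -1.48 beside -0.89 for all genes. Hist1h4d was at 22.4, 25.5 and 114 in the nuclei and at 218, 342 and 203 in the cytoplasms (-2.59 ± 0.59, adjusted p = 0.038), and Hist1h3h at 1.74, 0 and 0 against 17.1, 2.46 and 8.03 (-2.56 ± 0.60, adjusted p = 0.045), and Hist3h2bb-ps had a difference of -2.50 ± 0.59 (adjusted p = 0.045); none was called lower under a scaling alternative. Hist2h3b was the exception, at 35.9, 40.9 and 5.29 in the nuclei against 1.25, 2.03 and 2.098 (2.95 ± 0.65, adjusted p = 0.030), with nucleus 3 near the cytoplasms, and it was not called under any of the 3 scalings, nor without nucleus 1, nucleus 2 or cytoplasm 2. These genes are near-identical copies, so fragments could be split among them.

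Messages that define the growing oocyte lay lower in nuclei 1 and 2 than in the cytoplasms, and nucleus 3 lay close to the cytoplasms. Gdf9, a growth factor secreted to granulosa cells, was at 1289, 728 and 2504 in the nuclei and at 3288, 3393 and 3416 in the cytoplasms (-1.34 ± 0.62, limma adjusted p = 0.14). Zp3, the zona pellucida protein that binds sperm, was at 1672, 1013 and 3019 against 3435, 2475 and 4570.1 (-0.98 ± 0.63, adjusted p = 0.22), and nucleus 3 lay within the range of the cytoplasms. Of 14 oocyte markers none was called in the comparison of 3 against 3. For 4 of the 14 every nucleus was below every cytoplasm, beside 39.6% of all genes tested, and for 10 the groups overlapped. Without nucleus 3, 12 were called lower, where 60.5% of all genes tested were, among them Gdf9 (-1.80, adjusted p = 0.014), Bmp15 (-1.90, adjusted p = 0.023), Kit (-1.84, adjusted p = 0.013), Nobox (-1.53, adjusted p = 0.012) and Dazl (-2.55, adjusted p = 0.015). Zp2 was not called without it either (-1.46, adjusted p = 0.060). These calls are on the FPKM as deposited. With median-of-ratios scaling as well, 169 of all genes tested were called lower without nucleus 3.

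Stored messages for translation and for the embryo had the same form. Zbed3, a component of the subcortical maternal complex, was at 1536, 1624 and 2511 in the nuclei and at 3645, 4856 and 3135 in the cytoplasms, and Eif4e1b, an oocyte cap-binding protein, at 245, 191 and 570.4 against 955, 908 and 896. Neither was called (adjusted p = 0.18 and 0.13), although for both every nucleus was below every cytoplasm. Of 23 maternal-effect genes 17 were below in every nucleus (39.6% of all genes tested were), none was called, and the median was -1.08, beside -0.89 over all genes. Ccnb1, the cyclin of meiotic entry, was at 108, 61.1 and 222 against 337, 324 and 310.0. Mos, the kinase that holds the egg in metaphase, was at 175, 114 and 363 against 471, 531 and 461. Among 21 meiotic genes none was called and 16 were below in every nucleus, beside 39.6% of all genes tested. Obox5, an oocyte homeobox gene, was at 75.6, 6.11 and 157 against 287, 125 and 234.

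Housekeeping messages were read the same way. The 85 tested ribosomal protein genes had a median of -1.17 with none called and 44 below in every nucleus. The 77 oxidative phosphorylation genes had -1.19 with 39 below, and the 45 proteasome genes -1.24 with 31 below. Of all genes tested 39.6% were below in every nucleus. Without nucleus 3, on the FPKM as deposited, 67, 59 and 42 genes of these lists were called lower, beside 60.5% of all genes. Rpl41, a protein of the large ribosomal subunit, was at 293, 168 and 605 in the nuclei and at 728, 798 and 691 in the cytoplasms, Psmb6, a proteasome subunit, at 71.4, 33.9 and 129 against 165, 148 and 150.1, and Npm1, a nucleolar protein of ribosome assembly, at 57.2, 38.7 and 170.3 against 239.5, 319 and 225. The list of MTR4 and its adaptors had 15 tested genes, Skiv2l2 itself among them, and that of exosome genes 14. None of either list was called, with medians of -0.84 and -0.97. Without nucleus 3, 14 and 8 of them were called lower, beside 60.5% of all genes.

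**Figure D2:**
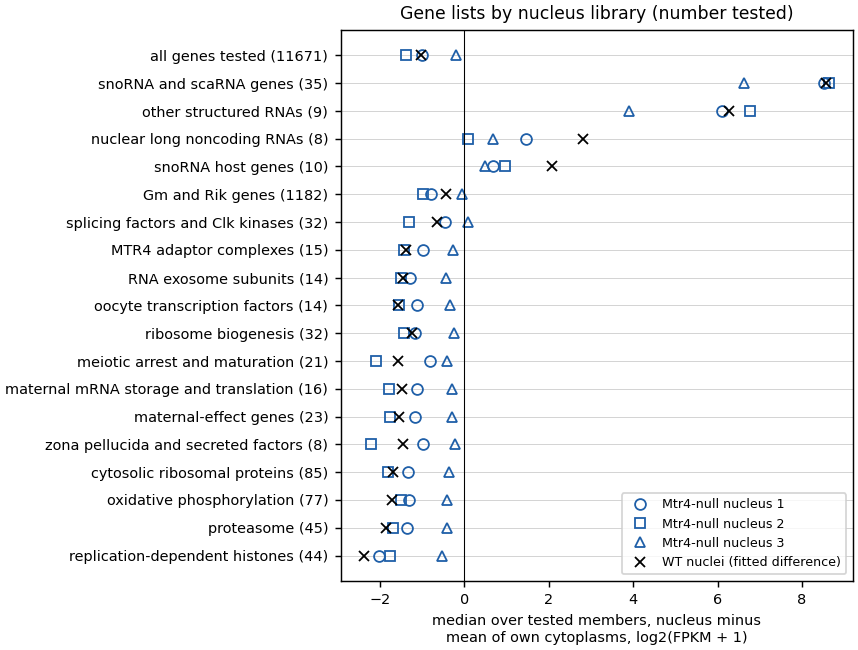
Median over the tested members of each gene list (number tested in parentheses) of the difference between a Mtr4-null nucleus library and the mean of the 3 Mtr4-null cytoplasms, in log2(FPKM + 1); open marks are nuclei 1, 2 and 3 and crosses the fitted WT difference. The snoRNA and structured RNA lists lie to the right in every nucleus, and nucleus 3 lies nearest to 0 for the messenger RNA lists.

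How nuclear each Mtr4-null nucleus was could be read from genes chosen in the WT libraries alone. Among genes at 1 FPKM or more in at least 3 of the 6 WT libraries, a different set from the 11671 tested elsewhere, 1471 were called higher and 7168 lower in the WT nucleus without overlap of the libraries. Relative to the Mtr4-null cytoplasms, the median of the WT nuclear genes was 0.86, 0.29 and 0.68 in nuclei 1, 2 and 3, and the median of the WT cytoplasmic genes was -1.15, -1.67 and -0.29. In WT those medians were 1.69 and -1.40. The gap between the gene sets was thus 65.2%, 63.5% and 31.4% of the WT gap, a description with no test, and with median-of-ratios scaling 60.3%, 54.9% and 29.1%. The genes were chosen in the same 6 WT libraries that give the WT gap, which widens that gap. A smaller gap in the Mtr4-null nuclei is therefore set in part by the choice of genes. In the Mtr4-null cytoplasms, the WT nuclear genes had medians of 0.13, 0.07 and 0.11 above the mean of the WT cytoplasms.

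**Figure D3:**
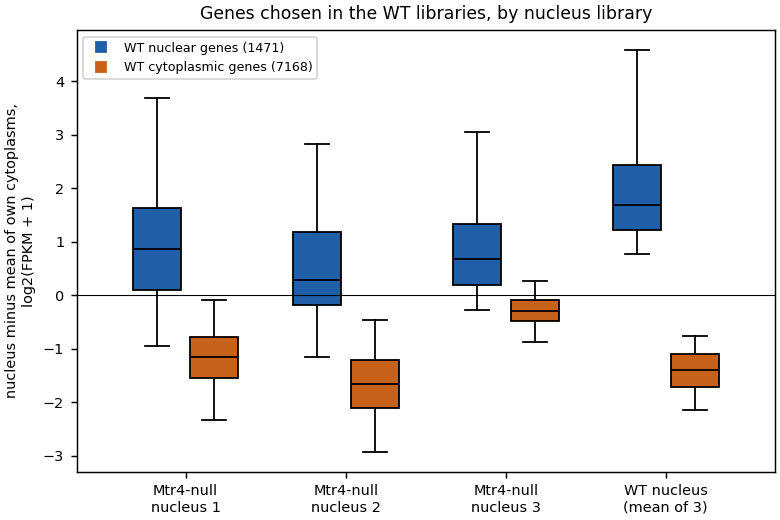
Difference between each nucleus and the mean of the cytoplasms of its genotype, in log2(FPKM + 1), with the WT nuclei as their mean, for 1471 genes higher and 7168 genes lower in the WT nucleus; boxes span the quartiles, lines inside are medians and whiskers reach the 5th and 95th percentiles. The medians lie 2.01, 1.96 and 0.97 apart in nuclei 1, 2 and 3 and 3.09 apart in WT, where the genes were chosen.

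The number of genes at 1 FPKM or more was 11173, 10325 and 12078 in the nuclei and 11531, 11207 and 11401 in the cytoplasms. The difference of -188 genes was within the spread (exact two-sided permutation test, p = 0.70, where 3 against 3 allows no p below 0.10), and without nucleus 2 it was 246.

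Most genes called in Mtr4-null had the same direction in WT. The 2 comparisons share no library. Of the 174 genes called higher, 165 (94.8%) were also called higher in WT, which is 16.7% of the 987 called there (8.46% of genes tested), and 1 was called lower in WT, Hist2h3b. Of the 26 called lower, 14 (53.8%) were called lower in WT, 0.195% of the 7178 called there (61.5%). For the 165 shared genes the median difference was 2.63 in Mtr4-null and 4.08 in WT, and 148 of them had the smaller value in Mtr4-null. Across the 11671 genes, which are not independent replicates, Spearman's rho of the 2 differences was 0.64, and 0.60 without nucleus 3.

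**Figure D4:**
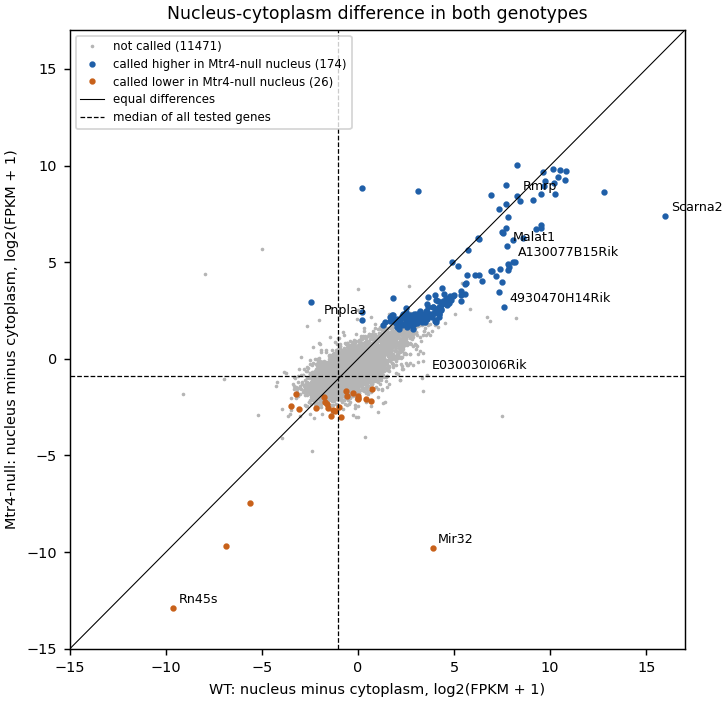
Nucleus minus cytoplasm in log2(FPKM + 1) for each of 11671 genes, WT on the horizontal and Mtr4-null on the vertical axis; blue and orange points were called in Mtr4-null, the solid line marks equal differences and dashed lines the medians of all genes. Most blue points lie below the line on the nuclear side, Mir32 lies at the lower right and Pnpla3 at the upper left.

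The test of the difference itself, an interaction in the fit of all 12 libraries, called 3 genes of 11671 (0.0257%), with 926 at an unadjusted p below 0.05. 4930470H14Rik was at 604, 350.1 and 687 FPKM in the Mtr4-null nuclei and at 82.1, 66.1 and 97.6 in the cytoplasms, and at 1149, 674 and 1122 in the WT nuclei against 7.17, 2.84 and 2.83 in the WT cytoplasms. Its difference was smaller in Mtr4-null by 4.91 (SE 0.55, adjusted p = 0.0017), and the cytoplasms differed more between genotypes than the nuclei did. E030030I06Rik was at 13.6, 7.78 and 32.2 against 24.2, 33.9 and 25.4 in Mtr4-null and at 33.4, 19.3 and 27.1 against 1.55, 0.696 and 1.76 in WT (-4.38 ± 0.61, adjusted p = 0.015). Pnpla3, a lipid hydrolase of lipid droplets, was at 23.3, 5.33 and 6.12 against 1.22, 1.67 and 1.73 in Mtr4-null and at 30.1, 16.8 and 27.2 against 101, 106 and 102 in WT (4.09 ± 0.62, adjusted p = 0.025). In all 3 genes the WT and Mtr4-null cytoplasms did not overlap. The Mtr4-null cytoplasms were the higher ones for the Rik entries and the lower ones for Pnpla3. Without nucleus 3 the interaction called 187 genes, 177 of them with a negative value (Mtr4-null minus WT), and these 3 were among them.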

How the data were processed

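Total RNA-seq of nuclei and cytoplasms was analysed from 1 deposited table of FPKM, which the authors made from read pairs of 150 bp with, per the submitters' processing notes, TopHat2 2.1.1, Cufflinks 2.2.1 and mm9. The sources used here do not give annotation, strand use, total fragments or how multiply mapped fragments were treated, so overlapping, antisense and near-identical genes are uncertain. FPKM are not counts, so limma 3.58.1 (R 4.3.3) with a variance trend was run on log2(FPKM + 1), on the 6 Mtr4-null libraries and, for the interaction, on all 12. Fold changes on this scale are understated for low genes. Genes needed 1 FPKM in 3 of 6 libraries. P-values were adjusted by Benjamini-Hochberg over all genes tested, and the fit was tested on simulated data. Members, gene lists, named genes (largest differences among non-overlapping calls with a higher mean of 5 FPKM, up to 4 called and 2 abundant members of each list, and fixed markers) and tests were chosen with earlier results of these data known. Depth was estimated from ratios of values under 0.3 FPKM against 2 cytoplasm libraries. Sequences come from GENCODE M21 (GRCm38) and RefSeq, and shared stretches from BLAST 2.17.0. No coordinates are printed, since builds differ. Alternatives were pseudocount, filter, scaling, array weights, replicate block and libraries left out. A result that the rule for named genes would include is not reported here.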

Additional observations from a re-analysis of the deposited data

Results flagged for a closer look

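In 3 genes the nucleus-cytoplasm difference differed between genotypes by the limma interaction test: 4930470H14Rik (-4.91 in Mtr4-null minus WT), E030030I06Rik (-4.38) and Pnpla3 (4.09). The first kept its call with each of the 12 libraries left out in turn. E030030I06Rik lost it without Mtr4-null cytoplasm 2, WT cytoplasm 2 or WT nucleus 3. Pnpla3 lost it without any single cytoplasm library of either genotype, without WT nucleus 2 or 3 and under 2 of the 3 scalings (adjusted p = 0.053 to 0.094). In 2 further genes the libraries had opposite orders in the 2 genotypes without a called difference. Hist2h2bb was higher in every Mtr4-null nucleus (1.69) and lower in every WT nucleus (interaction adjusted p = 0.063), and Snhg6 was lower in every Mtr4-null nucleus (-2.28) and higher in every WT nucleus (adjusted p = 0.24). Among all 11671 genes tested such opposite orders occurred for 48, with the Mtr4-null nuclei below in 43 and above in 5.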

How the results depend on the processing

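The Mtr4-null comparison called 200 genes. With a pseudocount of 0.1 it called 80 (74 higher, 6 lower), with no filter 32 (28 and 4) and with a filter of 5 FPKM 96 (87 and 9). Median-of-ratios scaling gave 220 higher and 8 lower, scaling without small RNA genes 268 and 8, and quantile normalization 219 and 5. Array weights gave 10150 (1110 and 9040), but their estimation did not converge. The fit of 12 libraries gave 4719 (438 and 4281), the Mtr4-null comparison without nuclei 1 and 3 together 8861 (511 and 8350), with 1 nucleus left that is assumed to vary like the cytoplasms, and, chosen after seeing the data, the fit without nucleus 3 with median-of-ratios scaling 661 (492 and 169). Over the 6 fits leaving out 1 library, calls ranged from 95 to 7487 (84 to 428 higher, 11 to 7059 lower), the highest without nucleus 3, and without it all 200 were kept.

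The interaction called 3 genes, with no filter 111, with a filter of 5 FPKM 8, with median-of-ratios scaling 53, without small RNA genes 22, with quantile normalization 12, with array weights 3972 (not converged), without nuclei 1 and 3 together 1099 and without nucleus 3 with median-of-ratios scaling 205; leaving out 1 library gave 1 to 187. Replicate numbers were not taken to pair nuclei with cytoplasms, since the labels do not say that they do. Deviations correlated at 0.08, 0.33 and 0.14 for equal replicate numbers and at -0.24 to 0.16 for unequal ones, which does not settle it. With the replicate block the comparison called 919 (296 higher, 623 lower) and the interaction 6.

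Signs changed for E030030I06Rik (0.048 with median-of-ratios, 0.11 with quantile normalization), Tug1 (0.056, quantile), Airn (-0.22 to 0.68 with 1 library left out, lowest without nucleus 1, and -0.39 without nuclei 1 and 3), Skiv2l2 (-0.068 to 1.39, lowest without nucleus 1, and -0.49) and Zbed3 (0.023 without nucleus 3 with median-of-ratios). The difference in genes detected ranged from -631 to 246 with 1 library left out. The shares of the WT gap moved by less than the SD between nuclei. Nuclear depth limits low genes.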

Other observations

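Snord37 was at 91579.7 FPKM in nucleus 2 and listed at 0 in the 11 other libraries, so it is among the 5 highest means of the Mtr4-null nuclei through 1 library. Genes at 10 FPKM or more in the 5 other Mtr4-null libraries were listed at 0 in nucleus 1 for 13 genes, in nucleus 2 for 5 and in nucleus 3 for none. Lars2, a mitochondrial leucyl-tRNA synthetase, was at 4255, 23922 and 558 in the Mtr4-null nuclei and at 268, 1984 and 1180.2 in the cytoplasms.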
